A study of Homo sapiens with 8 samples.

Results

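The clustered protocadherin genes are the protein-coding genes whose symbols start with PCDHA, PCDHB or PCDHG, and they lie side by side on the long arm of chromosome 5. The rule that picks them uses symbol and gene type and no measured value, but the group was taken up with earlier results of these data known. The 2 deposited tables listed 42 of them among 34164 genes in all. These were 7 alpha, 13 beta and 22 gamma genes, of the 53 that GENCODE annotates (15 alpha, 16 beta and 22 gamma), and 34 of them stood in both tables. The remaining 11 genes (PCDHA2, PCDHA3, PCDHA6, PCDHA8, PCDHA9, PCDHA12, PCDHA13, PCDHAC1, PCDHB1, PCDHB5 and PCDHB6) have no values here. They enter only the promoter counts below, where a promoter was found. The members spanned chr5:140786136-141512981 (GRCh38), with the alpha cluster first, the beta cluster in the middle and the gamma cluster last, all on the plus strand.

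Clustered protocadherins are cell surface proteins of the cadherin superfamily that bind copies of themselves on neighbouring cells. They are best known from neurons, where each cell uses a small and largely random set of them and where they let a neuron recognise and avoid its own branches. Each alpha and gamma gene has its own promoter and its own large first exon, which encodes the extracellular domains and is spliced to constant exons shared by the whole cluster. Beta genes have a single coding exon and no constant part. Promoter choice is known to depend on DNA methylation, on CTCF and on cohesin, and in epithelial tumours long stretches of these clusters are often DNA methylated. PCDHGC3, a C-type gene at the end of the gamma cluster, is known to be used outside the nervous system as well.

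RNA-seq was performed in Kyse510, an esophageal squamous cell carcinoma (ESCC) line, with 1 library for each of 8 conditions. In the inhibitor arm, cells received vehicle (DMSO), 7 µM SP2509 (an inhibitor of the histone demethylase LSD1), 7 µM UNC0642 (an inhibitor of the histone methyltransferase G9a) or the combination, each for 2 days. The dose within the combination is not stated separately. In the shRNA arm, cells were infected with a doxycycline-inducible (Dox) shLSD1 or shG9a construct, selected with puromycin as stable clones (how many is not stated) and then cultured without Dox or with Dox for 2 days. The control of each knockdown was the same line without Dox, and no line with a nonsilencing shRNA was analysed here, so Dox itself and the knockdown cannot be told apart. The 3 inhibitor comparisons share 1 vehicle library. Nothing was replicated, so whether a difference exceeds the spread between replicates is unknown, and every p below compares 2 libraries and covers counting error only.

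Values were deposited as FPKM, in which the fragments of a gene are divided by gene length and library size. In bulk RNA, fewer cells with a transcript and less transcript per cell cannot be told apart. The whole reads behind them were recovered from the steps of the values, which gave library totals of 15662035 to 17889466 reads. The targets of the knockdowns were lower with Dox, KDM1A (LSD1) at 6.29 against 26 FPKM in the shLSD1 line and EHMT2 (G9a) at 4.76 against 7.85 FPKM in the shG9a line. All 6 squamous and epithelial markers examined (KRT5, KRT14, KRT6A, TP63, CDH1 and EPCAM) were read in every library, KRT5 at 74.6 FPKM or more and EPCAM at 101 FPKM or more. KRT14 and KRT6A were far lower, at 1.93 and 0.676 FPKM with vehicle, so KRT6A was below 1 FPKM there. Of 8 neuronal markers, NEFL and MAP2 reached 1 FPKM, at 4.57 and 2.75 FPKM with vehicle. RBFOX3, ELAVL3 and STMN2 did not exceed 0.0502 FPKM in any library that lists them.

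The promoters of 4 members are shown first, because the results below turn on these genes. PCDHGC3 and PCDHB14 were the members that reached 1 FPKM, PCDHB10 had the second highest level in the beta cluster, and PCDHGB7 was a gamma gene whose reads moved in opposite directions in the knockdown lines. Each is the RefSeq promoter (GRCh38.p14, plus strand, 5′ to 3′) from 250 bases before to 50 bases after the start of the transcript, and the capitals mark CGCT on either strand (AGCG on the strand shown), the core of the conserved sequence element of protocadherin promoters.
PCDHGC3, chr5:141475716-141476015: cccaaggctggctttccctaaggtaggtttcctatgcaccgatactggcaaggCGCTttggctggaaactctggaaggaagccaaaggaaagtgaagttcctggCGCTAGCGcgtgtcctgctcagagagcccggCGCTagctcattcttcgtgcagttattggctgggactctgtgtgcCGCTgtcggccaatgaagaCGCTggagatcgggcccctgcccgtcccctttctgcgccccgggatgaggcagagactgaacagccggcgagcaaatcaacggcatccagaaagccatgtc
PCDHB14, chr5:141223093-141223392: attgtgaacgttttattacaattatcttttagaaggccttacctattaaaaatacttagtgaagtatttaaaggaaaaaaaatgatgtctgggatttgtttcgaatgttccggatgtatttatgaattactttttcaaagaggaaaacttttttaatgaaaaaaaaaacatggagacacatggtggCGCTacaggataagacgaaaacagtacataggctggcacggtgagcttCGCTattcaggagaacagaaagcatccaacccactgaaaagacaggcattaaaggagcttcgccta
PCDHB10, chr5:141192103-141192402: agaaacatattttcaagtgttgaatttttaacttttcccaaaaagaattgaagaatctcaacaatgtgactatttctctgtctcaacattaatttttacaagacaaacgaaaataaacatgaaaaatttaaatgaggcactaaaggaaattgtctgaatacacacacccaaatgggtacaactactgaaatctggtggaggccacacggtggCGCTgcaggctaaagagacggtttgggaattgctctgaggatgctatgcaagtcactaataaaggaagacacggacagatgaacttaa
PCDHGB7, chr5:141417427-141417726: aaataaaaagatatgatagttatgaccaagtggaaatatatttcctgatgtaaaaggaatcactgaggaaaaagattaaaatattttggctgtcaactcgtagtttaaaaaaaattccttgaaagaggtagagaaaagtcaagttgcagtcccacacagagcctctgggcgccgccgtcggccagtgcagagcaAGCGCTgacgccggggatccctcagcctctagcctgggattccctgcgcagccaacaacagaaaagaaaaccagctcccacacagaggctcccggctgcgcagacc
RefSeq promoters were found for 47 clustered protocadherin genes, which is another set than the 42 listed members. It includes unlisted genes such as PCDHA9 and PCDHAC1, and has no promoter for PCDHB11, PCDHGA12 and PCDHGC5. CGCT was present in 51 of these 52 promoters (98.1%), all but that of PCDHA9, and in 70% of the 35116 promoters in the table. The longer GGCGCT, which was added to the search after the data were seen, was found on either strand in 25 of the same 52 promoters (48.1%) and in 21.7% of all promoters. It lay 66 bases before the RefSeq start in PCDHB14 and 40 bases before it in PCDHB10, occurred 3 times in PCDHGC3 and was not in the PCDHGB7 window. The deposited gene span of PCDHB14 starts further upstream, at chr5:141222932, so its RefSeq window lies inside that span. AGGNGGC, a part of the CTCF consensus, was found in 4 of the 52 promoters (7.69%), among them that of the unlisted PCDHAC1, against 35.9% of all promoters. The longer AGGNGGCGC, which contains it, was found in 2 (3.85%) against 4.79%. These shares were not matched for the share of G and C bases, which was 35.7% in the PCDHB14 window, 36.7% in PCDHB10, 47.7% in PCDHGB7 and 59% in PCDHGC3. A match describes letters in this window and is no evidence of a bound factor, and a missing match is no evidence that a factor is absent.

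Detection was set at 1 FPKM. In 7 of the 8 libraries PCDHGC3 was the single member at or above it, and in the shG9a line with Dox PCDHB14 joined it. The next highest member was PCDHGB5 at 0.645 FPKM with vehicle, and all other beta members stayed at or below the 0.474 FPKM of PCDHB10. The vehicle, SP2509, UNC0642 and combination libraries held 5.89, 5.77, 4.88 and 4.98 FPKM summed over all members. In the knockdown arm the sum was 3.59 and 5.66 FPKM in shLSD1 cells without and with Dox, and 3.1 and 8.09 FPKM in shG9a cells. Levels were thus low across the clusters, and most comparisons below rest on small numbers of reads. With at least 3 reads as the criterion, 15 members were detected in vehicle, 19 in SP2509, 16 in UNC0642 and 13 in combination cells, 20 and 21 in the shLSD1 line without and with Dox, and 14 and 22 in the shG9a line.

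The alpha cluster was close to silent. No alpha gene had more than 2 reads in any library, and the listed genes together had 4, 4, 2 and 3 reads with vehicle, SP2509, UNC0642 and the combination. They had 1 and 3 reads in the shLSD1 line without and with Dox, and 0 reads in both shG9a libraries, where a count of 0 allows up to 3 reads. The highest level was 0.0205 FPKM for PCDHA7 with the combination. No difference in the alpha cluster was detectable at this depth. PCDHAC2, a C-type alpha gene, had 1 read with the combination, and the number of its reads is uncertain because the values imply a length of 3159 bases and its annotated exons hold 6162.

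PCDHGC3 (chr5:141475947-141512979) was the most highly expressed member in every library. The level was 3.21 FPKM in the vehicle library, 3.11 after SP2509, 3.63 after UNC0642 and 3.98 after both inhibitors. In the knockdown arm it was higher with Dox in both lines, at 2.26 against 1.35 FPKM (shLSD1) and 3.06 against 1.39 FPKM (shG9a). The inhibitor libraries therefore sat close together, while both libraries with Dox stood above both without it.

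**Figure D1:**
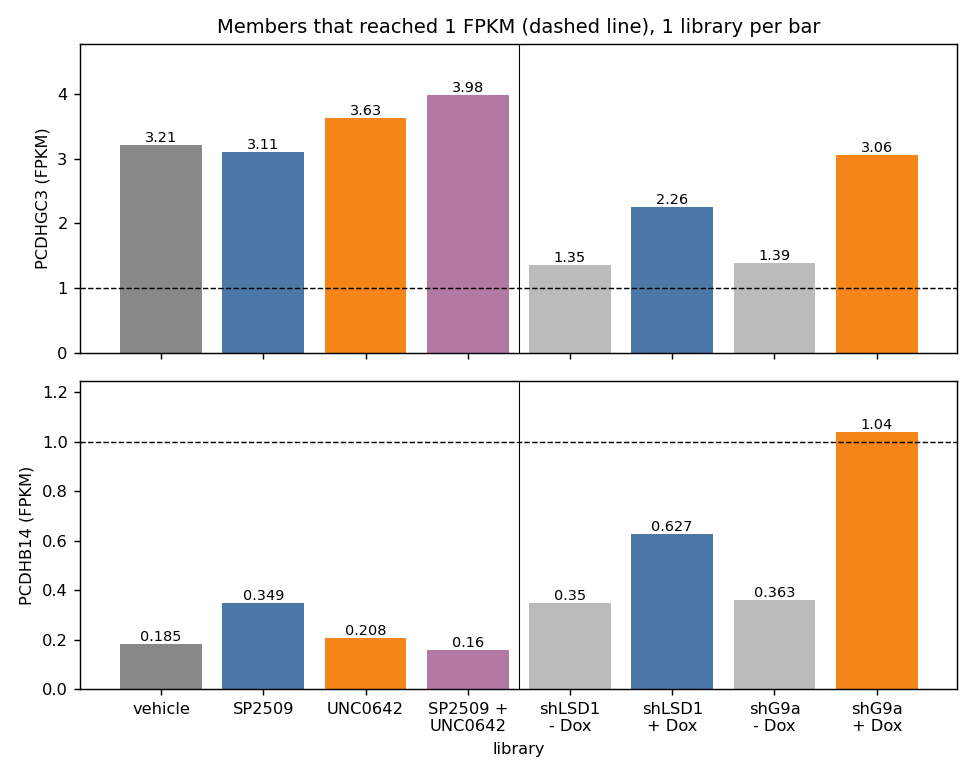
FPKM of PCDHGC3 (top) and PCDHB14 (bottom) in the 8 libraries, 1 bar per library, with the inhibitor arm to the left of the vertical line and the knockdown arm to the right. PCDHGC3 stood above the dashed 1 FPKM line in all 8 libraries, and PCDHB14 crossed it at 1.04 FPKM in the shG9a line with Dox.

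Calls required a (FPKM + 1) ratio of 1.3 or more in either direction, 1 FPKM or more in 1 of the 2 libraries, and an unadjusted two-sided exact binomial p of the reads below 0.05. By this rule the share of all tested genes called in either direction was 55.8% (SP2509), 29.8% (UNC0642), 58.1% (combination), 33.1% (Dox, shLSD1 line) and 45.8% (Dox, shG9a line). So many genes pass that a single call is not unusual in any of these comparisons. Only PCDHGC3 passed the filter on FPKM for the inhibitors and in the shLSD1 line, and PCDHGC3 and PCDHB14 passed it in the shG9a line.

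With this rule no member was called for any inhibitor. PCDHGC3 differed from vehicle by a log2 fold change of -0.03 with SP2509 (exact binomial p = 0.738) and by 0.14 with UNC0642 (exact binomial p = 0.128). With the combination its reads increased from 273 to 365, a ratio of read rates (reads over library total) of 1.24 (95% interval 1.06 to 1.46, exact binomial p = 0.00704), and its log2 fold change of 0.24 was below the threshold for a call. The intervals of the ratio for the single inhibitors, 0.821 to 1.15 for SP2509 and 0.964 to 1.33 for UNC0642, bound what these libraries allow.

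In the shLSD1 line PCDHGC3 was upregulated with Dox, from 130 to 215 reads. The log2 fold change was 0.47 and the ratio of read rates 1.68 (95% interval 1.34 to 2.1, exact binomial p = 2.53e-06). In the shG9a line it was upregulated from 125 to 288 reads, with a log2 fold change of 0.76 and a ratio of 2.2 (95% interval 1.78 to 2.74, exact binomial p = 2.54e-14). Genes of at least 5 FPKM had a median log2 fold change of 0.11 in the shLSD1 line and 0.14 in the shG9a line. Relative to that shift PCDHGC3 changed by 0.36 in the shLSD1 line, which ends the call there, and by 0.62 in the shG9a line, where the call held. PCDHB14 (chr5:141222932-141227759), a beta gene, was upregulated with Dox in the shG9a line from 0.363 to 1.04 FPKM (29 to 87 reads, log2 fold change 0.58, exact binomial p = 1.96e-07). Its level was 0.35 and 0.627 FPKM in shLSD1 cells without and with Dox, and 0.185, 0.349, 0.208 and 0.16 FPKM in the vehicle, SP2509, UNC0642 and combination libraries.

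Since 40 members at most were listed and nearly all lay below the filter, the reads themselves were compared in a second rule, which was added after the data were seen. It took genes with 10 to 200 reads in the 2 libraries together and called those whose read rate, the reads divided by the library total, differed by at least 1.3-fold with an unadjusted exact binomial p below 0.05. Members are named below by this rule. A gene with few reads enters the range mainly through the library in which it is high, so the counts of called members describe these genes and lend no support, whereas the cluster sums use every listed member and no filter. No member in the range had more than 87 reads in a library.

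**Figure D2:**
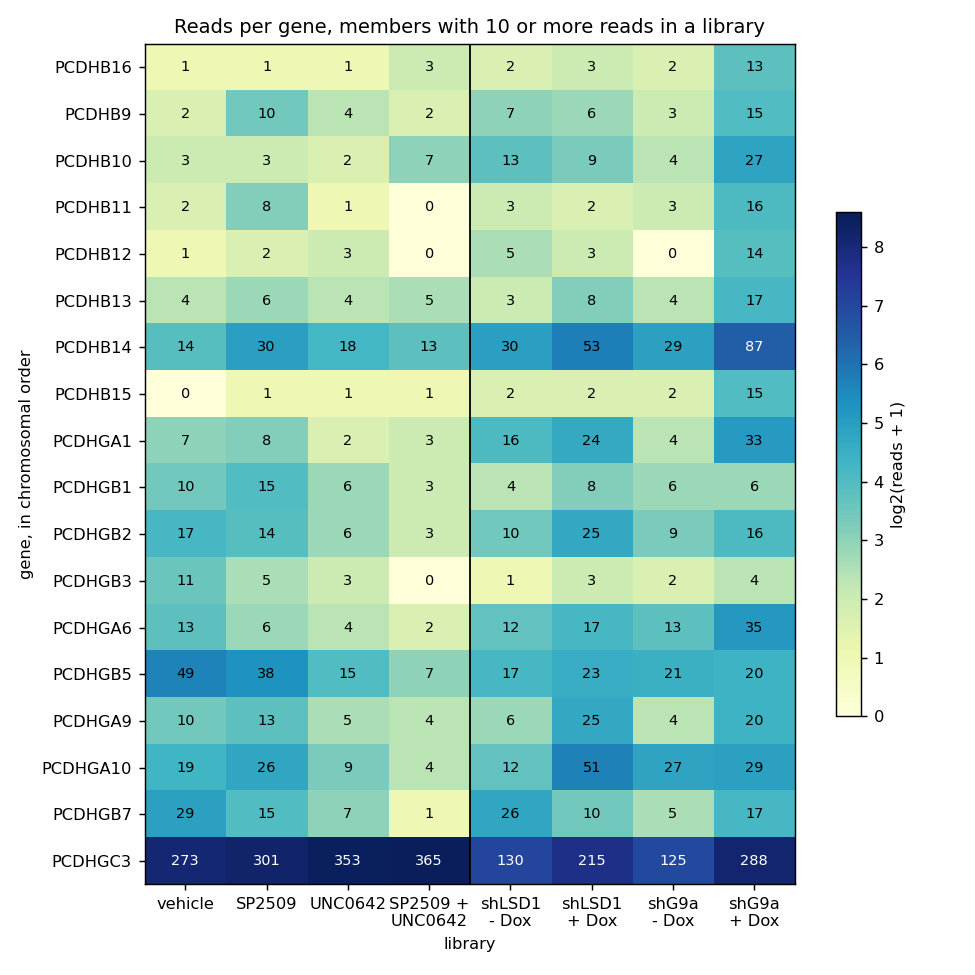
Reads of the 18 members with at least 10 reads in a library, in chromosomal order (rows), in the 8 libraries (columns), with the colour giving log2(reads + 1). Gamma A and B genes were darkest with vehicle and SP2509 in the inhibitor arm, and the beta genes were darkest in the shG9a line with Dox.

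The gamma A and B types, the genes between the beta cluster and PCDHGC3, were lower with UNC0642 and lowest with the combination. Together they had 183 reads in the vehicle library, 159 in SP2509, 64 in UNC0642 and 31 in the combination, or 11.7, 8.93, 3.58 and 1.84 RPM (reads per 1000000 reads of the library). The summed rate was 3.27-fold lower with UNC0642 (95% interval 2.44 to 4.41) and 6.36-fold lower with the combination (4.33 to 9.64), while SP2509 alone gave a rate 1.31-fold lower (1.05 to 1.63), where all genes with 10 to 200 reads had a median log2 ratio of -0.47. Both types took part, since A-type genes were 3.02-fold and B-type genes 3.43-fold lower with UNC0642, and 4.45-fold and 8.41-fold lower with the combination. PCDHGC3 had ratios of 1.13 and 1.24 in the same libraries, and it supplied 55.6%, 55.9%, 76.4% and 82.6% of all member reads in the vehicle, SP2509, UNC0642 and combination libraries.

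With UNC0642, 6 of the 8 gamma genes with 10 to 200 reads were called lower and none higher, where 14.5% of all genes in this range were called lower and 18.9% higher. PCDHGB5 had 49, 38, 15 and 7 reads in the vehicle, SP2509, UNC0642 and combination libraries, and was 3.73-fold lower with UNC0642 (95% interval 2.06 to 7.16, exact binomial p = 1.79e-06). PCDHGB7 had 29, 15, 7 and 1 reads in the same order and was 4.73-fold lower with UNC0642 (2.03 to 12.8, exact binomial p = 3.82e-05). Both genes declined in the same order of libraries. PCDHGA10 had 19, 26, 9 and 4 reads, PCDHGB2 17, 14, 6 and 3, PCDHGA6 13, 6, 4 and 2, and PCDHGB3 11, 5, 3 and 0. With UNC0642 these were 2.41-fold (PCDHGA10), 3.24-fold (PCDHGB2), 3.71-fold (PCDHGA6) and 4.19-fold lower (PCDHGB3, 95% interval 1.11 to 23.4), with exact binomial p between 0.011 and 0.0354. PCDHGA9 and PCDHGB1 were in the range and not called, and 5 of the 6 called genes had fewer than 10 reads with UNC0642.

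With the combination, PCDHGB5, PCDHGB7, PCDHGA10, PCDHGB2, PCDHGA6 and PCDHGB3 were called lower among 9 gamma genes in the range, against 22.2% of all genes called lower and 32.8% called higher. All 6 had fewer than 10 reads with the combination and owed their place in the range mainly to the vehicle library. PCDHGB5 was 7.54-fold lower (95% interval 3.4 to 19.7, exact binomial p = 1.05e-09). PCDHGB7, with 1 read left, had a ratio of read rates of 0.032 (0.000783 to 0.193, exact binomial p = 1.27e-08), and was at least 10.4-fold lower with a floor of 3 reads. PCDHGB3 had 0 reads left and was at least 3.95-fold lower when a floor of 3 reads is used. The remaining gamma genes in the range, PCDHGA1, PCDHGB1 and PCDHGA9, were not called.

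The beta genes were higher with SP2509. Together they had 29 reads in the vehicle library, 74 in SP2509, 39 in UNC0642 and 40 in the combination, so the summed rate was 2.24-fold higher with SP2509 (95% interval 1.44 to 3.58), and the intervals for UNC0642 (0.71 to 1.97) and the combination (0.774 to 2.14) include 1. Without PCDHB14 the ratio with SP2509 was 2.58 (1.41 to 4.99). Of 4 beta genes in the range for SP2509, PCDHB14 and PCDHB9 were called higher, both at the edge of what was detectable. PCDHB14 had 14 and 30 reads (ratio 1.89, interval 0.969 to 3.85, exact binomial p = 0.05, below the threshold before rounding). PCDHB9 had 2 and 10 reads (ratio 4.4, interval 0.937 to 41.3, at least 2.93 with a floor of 3 reads). Both intervals include 1. Among all genes in the range 17.6% were called higher and 38.4% lower with SP2509, and of 9 gamma genes PCDHGB7 was called lower (29 to 15 reads, 2.2-fold, exact binomial p = 0.0147). Genes in this range had a median log2 ratio of -0.47 with SP2509, and against that median PCDHGB7 was no longer called while PCDHB9 and PCDHB14 were.

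**Figure D3:**
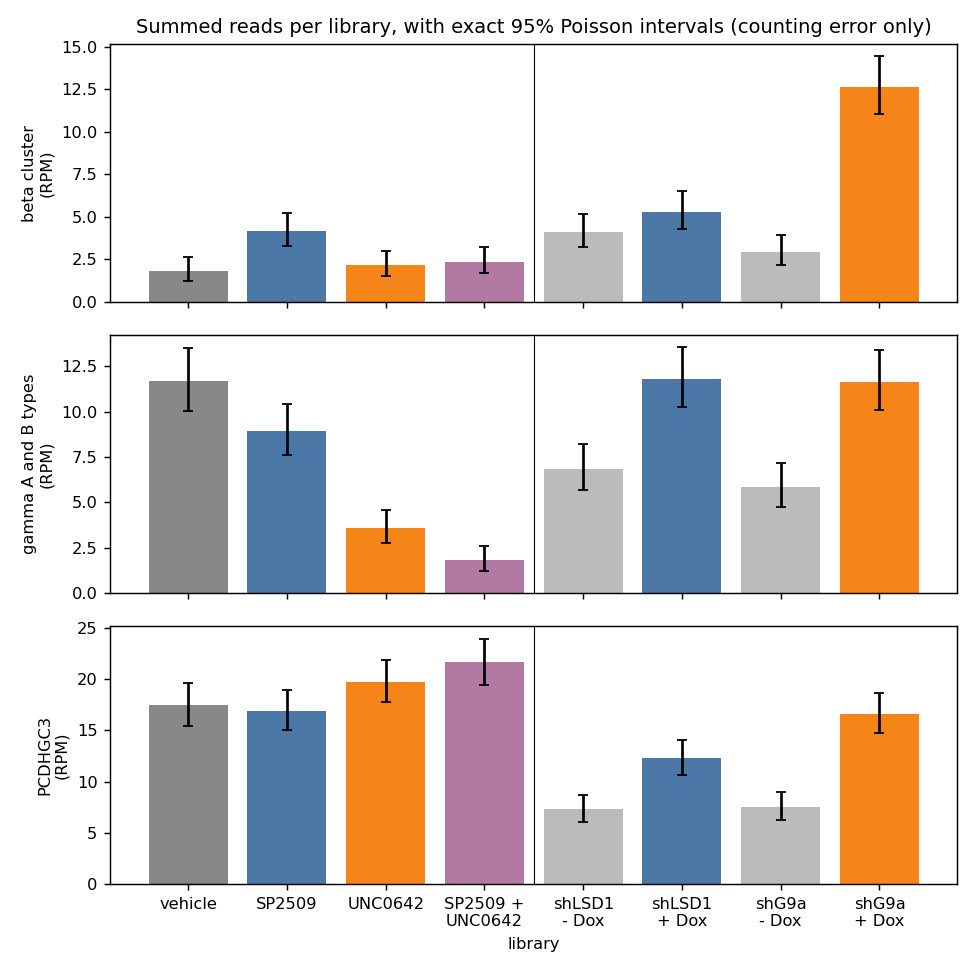
Summed RPM (reads per 1000000 reads of the library) of the beta cluster, of the gamma A and B types, and of PCDHGC3 in the 8 libraries, with exact 95% Poisson intervals that cover counting error only. Gamma A and B types stepped down from 11.7 with vehicle to 1.84 with the combination, whereas the beta cluster peaked at 12.6 in the shG9a line with Dox.

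In the shG9a line the beta cluster was higher with Dox. Its 12 listed genes had 49 reads without and 219 with Dox, or 2.96 and 12.6 RPM, a ratio of 4.27 (95% interval 3.12 to 5.94). PCDHB14 alone did not carry this, since the other 11 beta genes had 20 and 132 reads, a ratio of 6.3 (3.92 to 10.7). All genes with 10 to 200 reads had a median log2 ratio of 0.35 with Dox in the shG9a line and 0.16 in the shLSD1 line. In the shLSD1 line the beta genes had 73 and 93 reads, a ratio of 1.29 with an interval of 0.941 to 1.78, and without PCDHB14 they had 43 and 40 reads. These intervals cover counting error only, and the lines already had 73 (shLSD1) and 49 reads (shG9a) without Dox. The difference between the lines was not tested here.

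In the shG9a line 8 beta genes had 10 to 200 reads and each was called higher with Dox, where 27.2% of all genes in the range were called higher and 13.4% lower. That count is partly set by the range, since 7 of the 8 had fewer than 10 reads without Dox and entered it mainly through the library with Dox. PCDHB10 increased from 4 to 27 reads (ratio 6.45, 95% interval 2.25 to 25.4, exact binomial p = 3.86e-05). PCDHB12 increased from 0 to 14 reads, at least 4.46-fold with a floor of 3 reads. PCDHB13 increased from 4 to 17 reads (ratio 4.06, interval 1.32 to 16.6) and PCDHB11 from 3 to 16 (5.09, 1.46 to 27.3). PCDHB9 increased from 3 to 15 reads (4.78, 1.35 to 25.7). PCDHB15 increased from 2 to 15 reads (7.16, 1.67 to 64.6, at least 4.78 with a floor of 3 reads). PCDHB16 increased from 2 to 13 reads (6.21, 1.41 to 56.7, at least 4.14 with that floor). The exact binomial p of these 5 genes lay between 0.00245 and 0.00781. In each of these the library with Dox held most of the reads, and none had more than 0.0735 FPKM without Dox. The called genes run from PCDHB16 to PCDHB15 with no other listed member between them, the part of the cluster nearest the gamma genes. The upstream end of this run is set by the minimum of 10 reads and is no boundary in the values. PCDHB8, next to PCDHB16, increased from 0 to 8 reads (exact binomial p = 0.00793), too few for the rule. Further upstream, PCDHB2, PCDHB3 and PCDHB7 had at most 5 reads in either shG9a library.

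Beta genes are close copies of each other, and reads could be placed on the wrong one. Of all exonic windows of 150 bases, 17.9% recurred exactly elsewhere in the clusters for PCDHB10, 17% for PCDHB8 and 10.5% for PCDHB13. Copies with any mismatch were not counted. The share was 3.35% for PCDHB14, 3.01% for PCDHB15 and 2.91% for PCDHB11, so values of single beta genes are less certain than the sum. Some gamma genes have the same limit in the exonic bases that no other member holds. There the share was 13.4% for PCDHGB5, 6.63% for PCDHGB2, 1.23% for PCDHGA6, 0.607% for PCDHGB7 and 0% for PCDHGA10 and PCDHGB3.

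The gamma A and B types were also higher with Dox in both lines, opposite to their direction under UNC0642. They had 122 and 207 reads in the shLSD1 line (ratio 1.72, 95% interval 1.37 to 2.17) and 97 and 202 reads in the shG9a line (ratio 1.99, interval 1.55 to 2.56). All genes with 10 to 200 reads had a median log2 ratio of 0.16 in the shLSD1 line and 0.35 in the shG9a line. In both lines the A types were higher, by 2.28-fold (1.67 to 3.13) in the shLSD1 line and 2.48-fold (1.79 to 3.48) in the shG9a line. For the B types the intervals, 0.814 to 1.67 and 0.96 to 2.12, include 1.

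In the shLSD1 line 3 of 8 gamma genes in the range were called higher and 1 lower, against 19.2% and 11.6% of all genes in the range. Among the called genes, PCDHGA9 had fewer than 10 reads without Dox and entered the range mainly through the library with Dox. PCDHGA10 had 12 reads without and 51 with Dox (ratio 4.31, 95% interval 2.27 to 8.88, exact binomial p = 3.94e-07), PCDHGA9 had 6 and 25 (ratio 4.23, interval 1.69 to 12.6), and PCDHGB2 had 10 and 25 (ratio 2.54, interval 1.18 to 5.91). PCDHGB7 was lower, with 26 and 10 reads (2.56-fold, interval 1.2 to 5.96, exact binomial p = 0.0114). PCDHB14 was the 1 beta gene of 4 called in this line, with 30 and 53 reads (ratio 1.79, interval 1.12 to 2.9, exact binomial p = 0.0112).

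In the shG9a line 4 of 8 gamma genes in the range were called higher and none lower, against 27.2% and 13.4% of all genes in the range, and 3 of the 4 had fewer than 10 reads without Dox. PCDHGA1 had 4 reads without and 33 with Dox (ratio 7.88, 95% interval 2.8 to 30.6, exact binomial p = 1.33e-06), and PCDHGA6 had 13 and 35 (ratio 2.57, interval 1.33 to 5.3). PCDHGA9 had 4 and 20 (ratio 4.78, interval 1.6 to 19.2) and PCDHGB7 had 5 and 17 (ratio 3.25, interval 1.15 to 11.3). PCDHGA10, which had the smallest p of the gamma A and B genes in the shLSD1 line, had 27 and 29 reads here, and PCDHGB5 had 21 and 20. PCDHGA9 and PCDHB14 were the 2 members called higher in both lines, which is 50% of the 4 called higher in the shLSD1 line and 16.7% of the 12 in the shG9a line. Over all genes, 477 were called higher in both lines, 37.7% of the 1266 called higher in the shLSD1 line and 26.8% of the 1783 in the shG9a line. PCDHGA9 had fewer than 10 reads without Dox in both lines and entered the range mainly through the libraries with Dox. Differences between the lines were not tested.

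**Figure D4:**
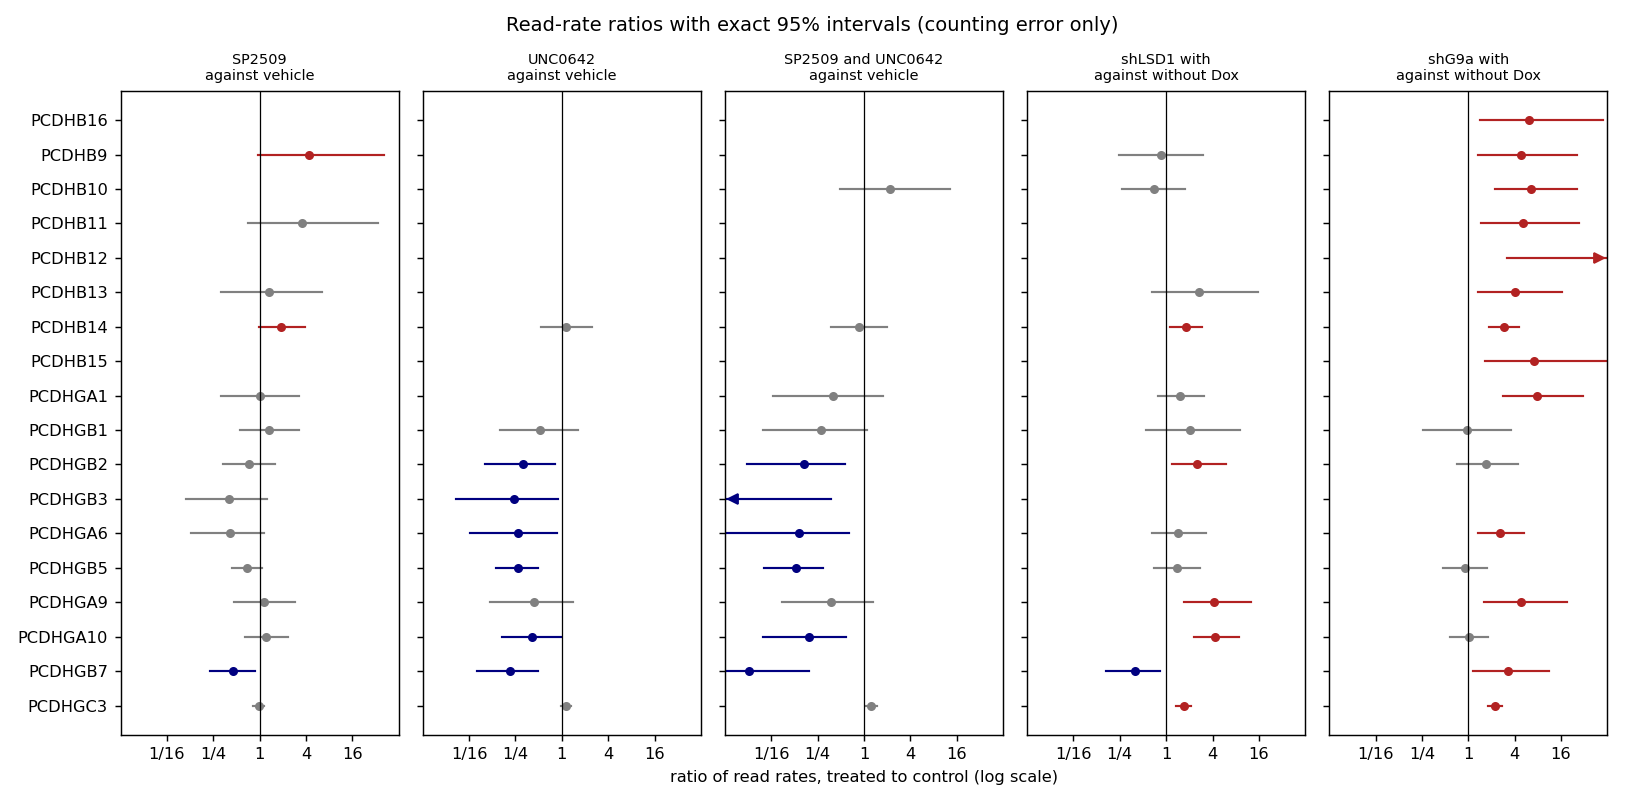
Ratio of read rates, treated to control, on a log scale for members with 10 to 200 reads in the pair of libraries, and for PCDHGC3, in the 5 comparisons. Points are ratios and lines exact 95% intervals of counting error, drawn no further than the axis. Red marks called higher, blue called lower, grey not called, and arrowheads genes with 0 reads in 1 library. Blue points are gamma genes, mostly with UNC0642 and the combination, and the 8 beta genes shown for the shG9a line are red.

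How the reads of shared exons were assigned limits the alpha and gamma values. Of the exonic bases of PCDHGC3, 59.9% belong to no other member, and the share was 54.8% for PCDHGB2, 55.5% for PCDHGB5, 56.1% for PCDHGB7 and 67.2% for PCDHGA10, the rest being mostly the constant exons. FPKM was computed over the full length, so a gene counted only on its own exon has a lower FPKM than its level would give. PCDHGC4 and PCDHGC5, which share these exons with PCDHGC3, had together at most 4 reads in any library, so reads of the constant exons were not given to each gene of the cluster. Neither the counting tool nor a strand setting is given in the sources used here.

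The baseline of the arms also differed. Without treatment, PCDHGC3 had 17.4 RPM with vehicle and 7.32 and 7.56 in the shLSD1 and shG9a lines without Dox, and the gamma A and B types had 11.7 against 6.87 and 5.86. Vehicle and the lines without Dox were prepared as separate tables and differ in culture and selection, so these values are given side by side with no test.

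In the main rule, which the gene lists below follow, the shares of all tested genes called higher and lower were 18.3% and 37.5% with SP2509, 15.8% and 14% with UNC0642, and 29% and 29.1% with the combination. With Dox they were 22.7% and 10.4% in the shLSD1 line and 30% and 15.8% in the shG9a line. The counts of each list are to be read against these shares.

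Of the 30 genes in a list of factors that act on protocadherin promoters, 29 were listed and all 29 passed the filter. With SP2509, 1 rose and 13 fell, with UNC0642 2 rose and none fell, and with both inhibitors 3 rose and 15 fell, and the 13 that fell with SP2509 stand beside the 37.5% of all genes. Their median log2 fold change was -0.30, -0.12 and -0.45 in these comparisons, where that of all genes tested was -0.21, -0.01 and -0.02. With Dox, 7 rose and 2 fell in the shLSD1 line (median 0.16, all genes 0.13), and 10 rose and 3 fell in the shG9a line (median 0.25, all genes 0.18). The list holds the knockdown targets KDM1A and EHMT2, each lower with Dox in its own line by design. UHRF1, which guides maintenance DNA methylation, fell with SP2509 from 8.38 to 5.33 FPKM and rose to 16.1 FPKM with UNC0642 and 17.3 FPKM with both inhibitors. It also rose with Dox, to 5.34 from 3.16 FPKM (shLSD1) and to 9.93 from 3.63 FPKM (shG9a). ZNF143, a zinc finger protein found at chromatin loops with CTCF, rose with each inhibitor from 3.38 FPKM to 9.49 (SP2509), 5.94 (UNC0642) and 11 (combination). PDS5A, a cohesin regulator, fell from 32.4 FPKM to 22 with SP2509 and 13.8 with the combination, and rose with Dox in the shG9a line from 14.1 to 19.1 FPKM. The cohesin subunit SMC1A rose with Dox to 8.1 from 4.58 FPKM (shLSD1) and to 9.45 from 5.75 FPKM (shG9a), and fell with SP2509 from 21.7 to 15.1 FPKM. The part of these factors in the protocadherin values was not tested.

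Of 20 genes for intracellular partners and processing enzymes of the protocadherins, 17 or 18 passed the filter. They went both ways, with 5 up and 4 down (SP2509), 2 and 2 (UNC0642), 6 and 5 (combination), 1 and 4 (Dox, shLSD1 line) and 3 and 4 (Dox, shG9a line). Their medians in the same order were 0.10, 0.12, 0.10, -0.08 and 0.01 on the log2 scale, beside -0.21, -0.01, -0.02, 0.13 and 0.18 over all genes tested. PTK2B, a kinase that binds the shared cytoplasmic domain, rose from 6.91 FPKM to 16.3 with SP2509 and 9.7 with UNC0642. With the combination PTK2B was at 5.72 FPKM, below vehicle and not called. It fell with Dox to 14.4 from 25.6 FPKM (shLSD1) and to 6.24 from 19.5 FPKM (shG9a). FYN, a Src family kinase, rose from 1.47 FPKM to 2.38 with SP2509 and 5.08 with the combination, and fell with Dox in both lines, from 1.97 to 0.701 and from 1.71 to 0.203 FPKM. BRK1, a subunit of the WAVE complex, rose with the combination from 58.4 to 119 FPKM and with Dox in the shG9a line from 75.7 to 123 FPKM, and MARCKS, which binds actin at the membrane, fell with each inhibitor from 67.1 FPKM to between 39.8 and 50.4 FPKM but rose with Dox in the shG9a line from 66 to 90.3 FPKM.

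Among 21 nonclustered protocadherins and large cadherins, 7 or 8 passed the filter. With SP2509, 1 rose and 3 fell, with UNC0642 1 fell, and with the combination 3 rose and 5 fell, while Dox went with 1 rise in shLSD1 cells and 2 rises and 2 falls in shG9a cells. Their medians in that order were -0.35, -0.18, -0.97, 0.11 and 0.17. FAT2 fell with each inhibitor, from 40.6 FPKM to 15.4 (SP2509), 26.8 (UNC0642) and 8.2 (combination), and rose with Dox in the shG9a line from 16 to 22.1 FPKM. PCDH7 fell from 10.1 to 1.69 FPKM with the combination and rose with Dox in both lines, from 5.17 to 8.27 and from 5.45 to 9.23 FPKM. CELSR1 fell from 27.6 FPKM to 20 with SP2509 and 10.7 with the combination, and from 34.6 to 17.7 FPKM with Dox in the shG9a line. PCDH1, which lies beyond the gamma cluster on chromosome 5, rose from 11.9 to 22.4 FPKM with the combination and fell from 19 to 4.01 FPKM with Dox in the shG9a line, where the beta genes rose.

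The protein-coding neighbours within 500 kb of the clusters, or between their members, formed the last list. Of 27 listed in the inhibitor table and 28 in the knockdown table, 21 or 22 passed the filter. With SP2509, 2 rose and 7 fell, with UNC0642 7 rose and 1 fell, and with the combination 11 rose and 4 fell, while Dox went with 6 rises and 1 fall in shLSD1 cells and 6 rises and 3 falls in shG9a cells. Their medians in that order were -0.26, 0.04, 0.38, 0.22 and 0.13. TAF7, which lies between the beta and gamma clusters and is named here for its position, had 41.2, 44.6, 30.1 and 73.8 FPKM in the vehicle, SP2509, UNC0642 and combination libraries, and was called lower with UNC0642 and higher with the combination. HBEGF, an EGF receptor ligand, rose from 2.96 FPKM to 10.9, 13.1 and 75 FPKM with SP2509, UNC0642 and the combination, and fell from 3.51 to 0.574 FPKM with Dox in the shG9a line. SLC35A4 fell with SP2509 (15.1 to 6.31 FPKM) and rose with the combination (to 20.1 FPKM) and with Dox in both lines, and TMCO6 fell with SP2509 and the combination (10.3 to 4.25 and 4.67 FPKM) and rose with Dox in both lines (6.24 to 9.31 and 6.68 to 8.99 FPKM). ARAP3 rose with UNC0642 and the combination (5.5 to 7.95 and 8.02 FPKM), and fell with SP2509 (to 3.6 FPKM) and with Dox in the shG9a line (5.5 to 3.35 FPKM).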

How the data were processed

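RNA-seq covered 8 Kyse510 libraries, 1 per condition, grouped by their sample labels. The authors cleaned the reads, mapped them to GRCh38, and deposited FPKM values in 2 tables, which were used as given. The aligner, counting tool, strand setting and test are not given in the sources used here. Both tables list only genes with a value above 0 in at least 1 of their 4 libraries.

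Library totals were recovered from the steps of FPKM values in 1-exon genes, and reads from the gene length that makes all values of a gene whole, within a tolerance of 2e-05 reads. Summed reads came to 99.6% to 99.8% of the totals. Another length was possible for 4 members, with at most 8 reads. Each treated library was compared with its control in 5 comparisons, with a pseudocount of 1 FPKM. Two-sided exact binomial tests were run over all genes of a table, and 95% intervals are exact (Clopper-Pearson for ratios, Poisson for sums) and cover counting error only. The rules were tested on simulated data. Members with at least 1 FPKM were named by rule, and from each other gene list up to 4 genes called in the most comparisons. The members and lists were chosen with earlier results of these data known. Promoters came from RefSeq and exons from GENCODE release 44. Alternatives were pseudocounts, filters, thresholds, centring and the pooled control. Tools were Python 3.11.15, numpy 2.4.6, pandas 2.3.3 and scipy 1.17.1.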

Additional observations from a re-analysis of the deposited data

Results flagged for a closer look

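PCDHGB7 was the single member called in opposite directions by Dox in the knockdown lines, under the rule on reads added after the data were seen. Its ratio of read rates (reads over library total), with to without Dox, was 0.39 in the shLSD1 line (26 to 10 reads) and 3.25 in the shG9a line (5 to 17 reads). The difference between the lines was not tested. When ratios were centred on the median of all genes with 10 to 200 reads, the call in the shLSD1 line held and that in the shG9a line did not. The lines already differed without Dox, at 26 and 5 reads, and with Dox they had 10 and 17 reads.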

How the results depend on the processing

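The counts of called members rest on the filter and the pseudocount, since almost all members lay under 1 FPKM. Without the filter, 1 member was lower with UNC0642, 2 were lower with the combination and 2 were higher with Dox in the shLSD1 line, against 0, 0 and 1. With a fold change of at least 2, 0 members were called higher in the shLSD1 and shG9a lines, against 1 and 2. A minimum of 5 FPKM also gave 0, which was fixed in advance because no member exceeded 3.98 FPKM in any library. Centring on the median left 0 in the shLSD1 line. The following alternatives were chosen after seeing the data. With neither pseudocount nor filter, 2 were higher and 1 lower with SP2509, 7 lower with UNC0642, 8 lower with the combination, 6 higher and 1 lower in the shLSD1 line and 15 higher in the shG9a line. With 10 to 200 reads these were 2 and 1, 6, 6, 4 and 1, and 12. Centred on the median of those genes, they were 2 higher with SP2509, 6 lower with UNC0642, 7 lower with the combination, 4 and 1 in the shLSD1 line and 11 in the shG9a line. The log2 fold change of PCDHGC3 with SP2509, which was not called, turned from -0.03 to 0.061 when centred. A pseudocount of 0.1, adjusted p, fold change alone and the mean of both lines without Dox as control left each count within 1.5 times, a statement about counts and not about which genes. No paired analysis was possible because each condition has 1 library, and leaving out a replicate was not possible for the same reason.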
